A study of Homo sapiens with 8 samples.

Results

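The genes described here are 10 human imprinted genes: PEG3, ZIM2, H19, IGF2, MEST, PEG10, SGCE, NDN, CDKN1C and PLAGL1. They were taken by symbol from a table of read counts for 32803 genes in 8 RNA-seq libraries. All 10 symbols were found, and 8 of them passed the filter on low counts that 16221 genes of the table passed. H19 and IGF2 did not. The 10 genes were chosen by their known imprinting with the counts of these same libraries already in view. Among these were the higher PEG3 counts of the resistant proficient cells. Levels and differences of the 10 genes are therefore given as descriptions, without p-values. A count of those past a threshold is given below, and nothing is read from it.

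The cells are UWB1.289, a line from an ovarian carcinoma with mutant BRCA1, and UWB1.289+BRCA1, into which BRCA1 was restored. The labels call them BRCA1-deficient and BRCA1-proficient. Each has a derivative resistant to PARP inhibitors, Olres-UWB1.289 and Olres-UWB1.289+BRCA1. PARP inhibitors block an enzyme of DNA strand break repair and are used against tumours with defective BRCA genes. All 4 lines grew in standard medium without drug, and total RNA was sequenced from 2 libraries of each. The parental deficient cells were at passage 29, the resistant deficient at passage 56, the parental proficient at passage 10 and the resistant proficient at passage 45. Resistance was therefore carried by 1 derivative line per background and always went with a higher passage number, and the contributions of drug resistance, passage and line cannot be told apart. Whether a resistant line is 1 clone is not given in the sources used here, and neither is whether the libraries of a group came from separate cultures, so the p-values reflect variation among these libraries alone, which could be technical.

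An imprinted gene is read mainly from the copy inherited from 1 parent, a difference that goes back to DNA methylation laid down in the egg or sperm. Imprinted genes often lie in clusters under a common control region, and many act on growth of the fetus and placenta. Loss of imprinting, or silencing of the active copy, is frequent in tumours, and PEG3 and PLAGL1 are known as growth-restraining genes that ovarian carcinomas often silence. The counts do not separate the parental copies, so they show how much RNA a gene gave and not which copy gave it. In bulk RNA, more RNA per cell and more cells with the RNA cannot be told apart.

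Library totals ran from 24094821 to 34394107 counts. BRCA1 itself was at 35.6 ± 0.647 CPM (read counts scaled to library totals with TMM factors, mean ± SD, n = 2) in parental deficient cells. It was at 34.7 ± 0.0847 in resistant deficient, 202 ± 14.4 in parental proficient and 2271 ± 134 in resistant proficient cells. The proficient pair thus differed in BRCA1 level as well as in resistance and passage. The part of this in the results below, comparisons of the backgrounds included, was not tested. Of 11 ovarian carcinoma markers, 9 to 10 reached 1 CPM in both libraries of each group, PAX8 and EPCAM among them. WT1 stayed below 1 CPM outside the resistant proficient libraries, and ESR1 outside the parental proficient ones. The 11 summed to 7796 and 8190 CPM in parental deficient and 5512 and 6618 in resistant deficient libraries. In parental proficient libraries they summed to 3751 and 4135 CPM, and in resistant proficient ones to 4316 and 4849. The 12 markers of other cell types summed to between 42.7 CPM in resistant proficient and 123 CPM in parental deficient libraries, with CD3E, DCN, LUM and PDGFRB all at 0 in the resistant proficient libraries. The sum of the 12 markers was lower in the resistant than in the parental libraries of both backgrounds. In deficient cells the largest drop was that of COL1A2, at 51.6 CPM in parental and 1.01 in resistant cells. PTPRC and PECAM1 were lower there too, while CDH5, CD68, COL1A1, ACTA2 and VWF were higher in the mean. The part of this sum in the results below was not tested. Fold changes followed the GC content of the transcripts, with a Spearman rho over 15664 genes of 0.456 for resistant against parental deficient cells and 0.0821 for the proficient pair, and of -0.440 and -0.515 for proficient against deficient cells before and after resistance. Genes are not independent replicates, so no p is given. The value after removal of that trend is given as the GC-corrected value for each fitted log2 fold change of the 10 genes, and for other named genes where the step moved a printed log2 fold change by over 1.5 times.

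Promoter sequences were looked up for the 10 genes in a RefSeq table that covers 250 bases before to 50 bases after a gene's start (GRCh38.p14), and 4 of the 10 had entries, with 12 windows. The windows below are shown because imprinted control regions are often rich in CG, the dinucleotide that carries methylation, and hold the hexamer TGCCGC that ZFP57, the zinc finger protein that keeps imprints methylated, binds when methylated. For each gene the window with most matches is given, 5′ to 3′ on the gene's strand, with TGCCGC and its reverse complement GCGGCA in capitals. A match on either strand counted, and overlapping matches counted separately. MEST lies on the plus strand at chr7:130491835-130492134, PLAGL1 on the minus strand at chr6:144008210-144008509 and NDN on the minus strand at chr15:23687256-23687555.
MEST: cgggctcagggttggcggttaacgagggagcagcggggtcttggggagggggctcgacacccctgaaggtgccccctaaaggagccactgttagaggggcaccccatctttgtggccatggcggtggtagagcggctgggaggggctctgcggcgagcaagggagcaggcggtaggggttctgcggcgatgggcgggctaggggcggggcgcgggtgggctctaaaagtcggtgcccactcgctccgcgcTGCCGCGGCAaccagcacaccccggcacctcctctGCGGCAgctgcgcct
PLAGL1: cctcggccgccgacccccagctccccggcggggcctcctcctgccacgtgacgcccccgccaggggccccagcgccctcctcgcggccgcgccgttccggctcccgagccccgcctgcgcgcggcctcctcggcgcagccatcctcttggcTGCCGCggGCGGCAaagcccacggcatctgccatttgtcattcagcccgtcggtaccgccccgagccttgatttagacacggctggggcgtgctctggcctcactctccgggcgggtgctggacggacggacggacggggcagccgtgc
NDN: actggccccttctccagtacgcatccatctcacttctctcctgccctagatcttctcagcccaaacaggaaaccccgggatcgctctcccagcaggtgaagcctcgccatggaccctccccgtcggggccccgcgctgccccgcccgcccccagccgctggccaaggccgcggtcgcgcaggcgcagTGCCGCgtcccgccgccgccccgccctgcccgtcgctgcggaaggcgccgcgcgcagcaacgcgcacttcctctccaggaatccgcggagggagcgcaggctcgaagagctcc
The MEST window held 3 matches and 25 CG dinucleotides, the PLAGL1 window 2 matches and 39 CG, and the NDN window 1 match and 35 CG. The H19 window, at chr11:2001217-2001516 on the minus strand, held 0 matches and 6 CG. Over all 35116 windows of the table the median was 14 CG, and 16.7% held the hexamer, against 6 of the 12 windows of these genes, of which 4 are MEST windows that overlap in pairs and so count shared letters more than once. A match is a description of the letters and not a bound site. ZFP57 RNA was near 0 here, with 2 counts in total in each of the 4 groups.

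PEG3 encodes a large zinc finger protein read from the paternal copy on chromosome 19. It was close to silent in both parental lines and present in both resistant lines. Parental deficient libraries held 4 and 4 counts and resistant deficient libraries 81 and 105, or 0.123 ± 0.0119 against 2.98 ± 0.0851 CPM. Parental proficient libraries held 0 and 0 counts and resistant proficient libraries 326 and 239, the latter 10.6 ± 0.963 CPM. In each background both resistant libraries lay above both parental ones. The ratio of resistant to parental deficient cells was 24.3, with an exact 95% interval of 12.1 to 57.2 that covers counting error only, and the fitted log2 fold change was 4.55 ± 0.33 (GC-corrected 4.78). In proficient cells PEG3 was at least 192-fold higher in the resistant line, a bound computed with 3 counts over the parental group in place of 0. The 2 resistant lines also differed, with PEG3 higher in the proficient one by a log2 fold change of 1.84 ± 0.20 (SE; GC-corrected 1.39). The order of the 4 groups was resistant proficient, resistant deficient, parental deficient and parental proficient, and no neighbours in that order overlapped.

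ZIM2 encodes another zinc finger protein, and in humans it shares its start region and first exons with PEG3. It had 0 counts in all 4 parental libraries. Resistant deficient libraries held 4 and 5 counts, and resistant proficient libraries 34 and 21, which is 1.03 ± 0.216 CPM. It was at least 3.14-fold higher in the resistant deficient and at least 18.6-fold higher in the resistant proficient cells than in their parents, on the same floor of 3 counts over the parental group. The 2 resistant lines differed by a ratio of 7.21, with an exact 95% interval of 3.54 to 16.6 for counting error. In GENCODE v29 gene models, 42.0% of the exon bases of ZIM2 also belong to PEG3 or ZIM2-AS1 and 12.9% of those of PEG3 belong to ZIM2. How reads in shared exons were assigned is not given in the sources used here, so the split between these genes is uncertain.

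**Figure D1:**
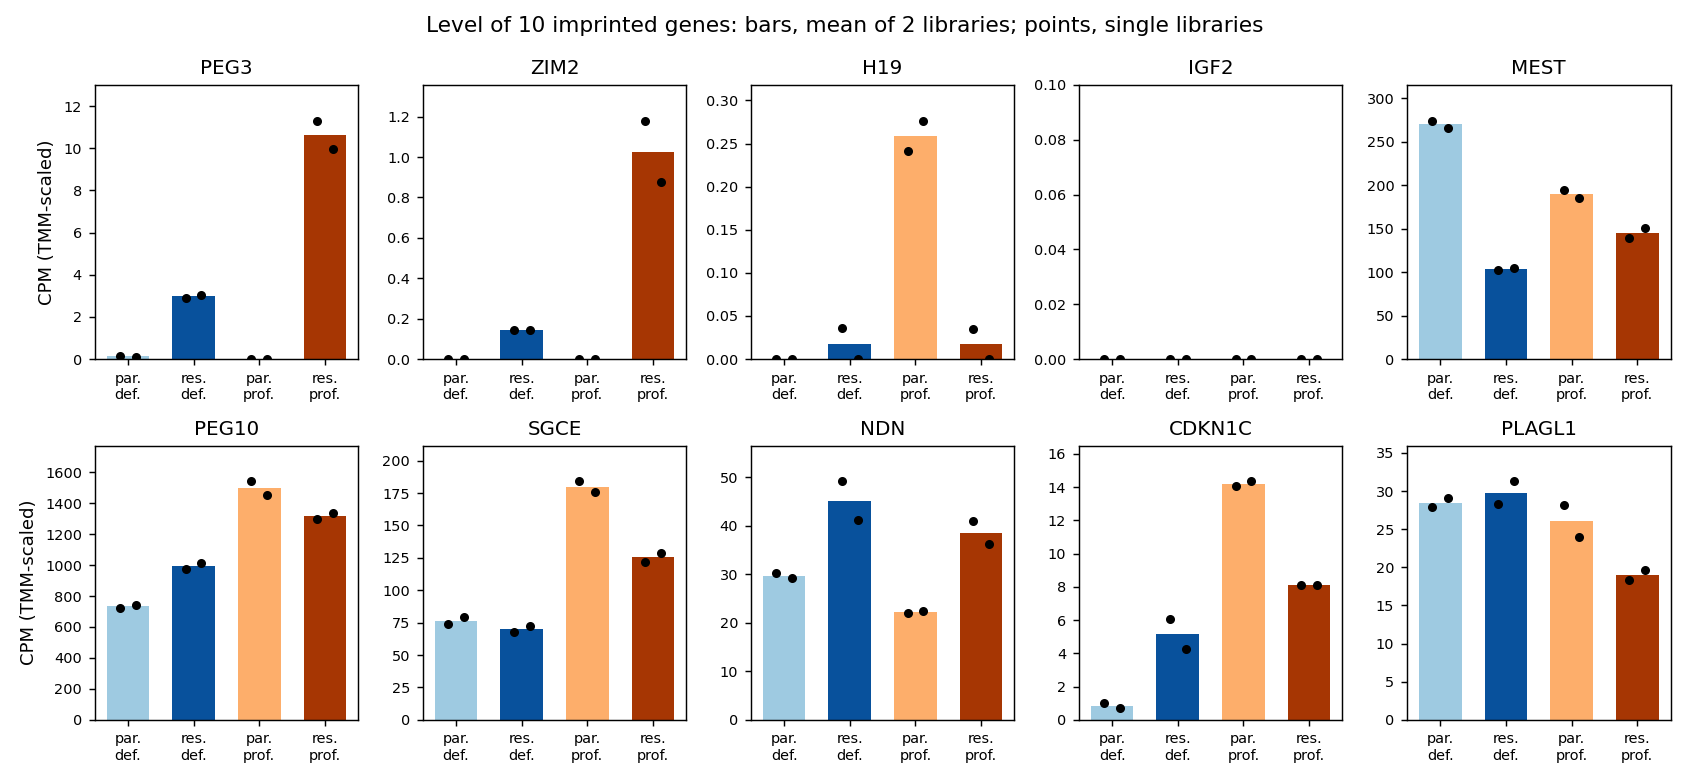
Level of each of the 10 genes in CPM relative to TMM-scaled totals (each panel has its own linear axis from 0) in parental (par.) and resistant (res.) cells of the BRCA1-deficient (def.) and proficient (prof.) background. Bars are means of 2 libraries and points single libraries. PEG3 and ZIM2 are seen in both resistant lines, IGF2 is at 0 throughout, and CDKN1C and PEG10 move in opposite directions in the 2 backgrounds.

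Their neighbours show how far the pattern reached. ZIM2-AS1, a non-coding RNA that lies beside ZIM2, had 0 counts in all 4 parental libraries, 28 and 27 in resistant deficient and 95 and 61 in resistant proficient libraries. That made it at least 19.2-fold and at least 52.9-fold higher, respectively, on the floor of 3 counts over the parental group. On the other side of PEG3, PEG3-AS1, USP29, ZIM3 and DUXA had 0 counts in all 8 libraries. MIMT1, an imprinted non-coding RNA of the same cluster, had 2 and 3 counts in the resistant deficient libraries and 0 in the other 6. Before ZIM2-AS1, SMIM17 and ZNF71-SMIM17 were also at 0 in all 8 libraries, so the stretch of low genes was bounded by ZNF71 and ZNF264. ZNF71 stood at 3.38 ± 0.717 CPM before and 4.18 ± 0.917 CPM after resistance in deficient cells, and at 3.10 ± 0.468 and 3.80 ± 0.074 in parental and resistant proficient cells, with overlapping libraries only in the first pair. ZNF835, between them, had 23 and 21 counts in resistant deficient against 6 and 8 in parental deficient libraries. In proficient cells its libraries overlapped, with 20 and 5 counts against 3 and 14. ZNF264, which stands next after DUXA and belongs to the list of other imprinted genes below, moved in opposite directions in the 2 backgrounds. Genes further out differed too, in mixed directions. From parental to resistant proficient cells ZNF471 went from 20.0 to 35.1 CPM, ZNF304 from 34.1 to 62.3 and ZNF460 from 10.3 to 6.99. In deficient cells these went from 9.93 to 11.3, from 22.5 to 16.8 and from 5.24 to 3.26.

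**Figure D2:**
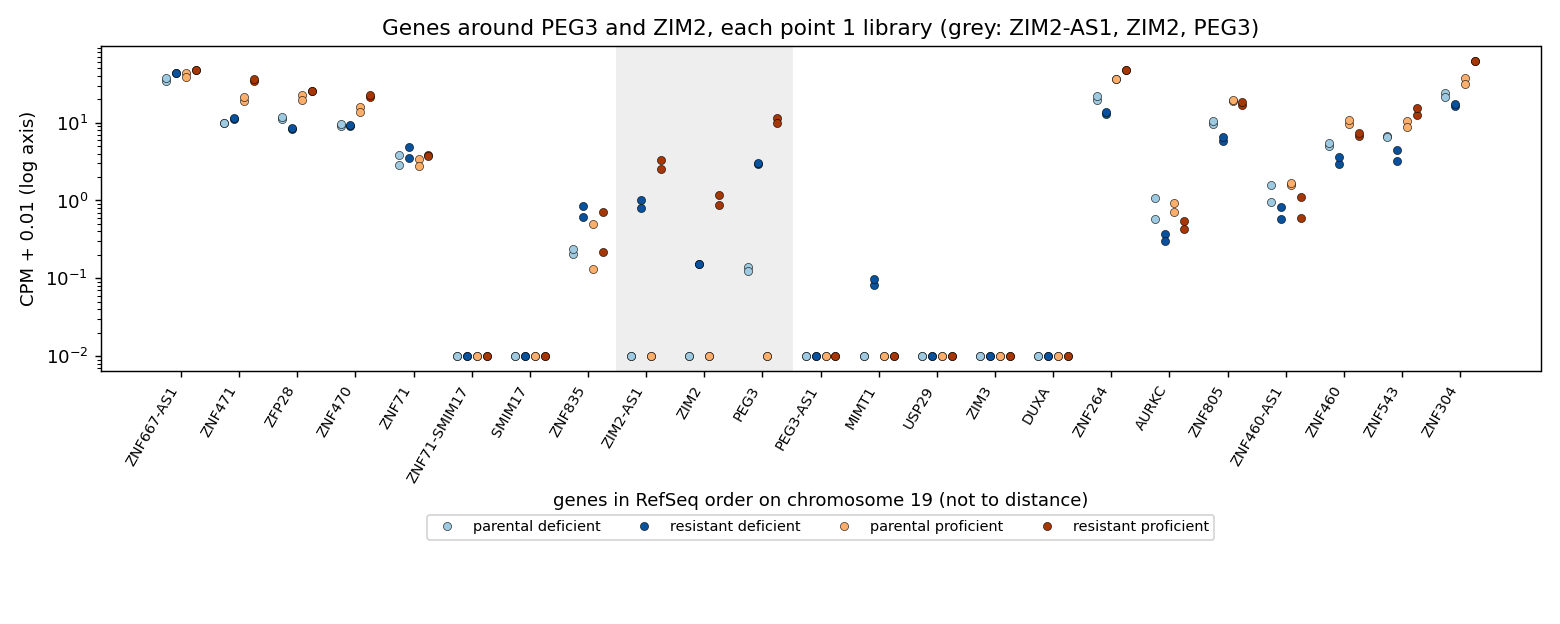
Level of 23 genes in the order of the RefSeq annotation along chromosome 19 (x axis, order only), as CPM + 0.01 on a log axis, each point 1 library. The grey band holds ZIM2-AS1, ZIM2 and PEG3, where points of the resistant lines stand well above the parental ones, and points at the bottom line are 0 counts.

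H19, a maternally read non-coding RNA, and IGF2, a paternally read fetal growth factor, form the best known imprinted pair. H19 was at the limit of detection, with 0 and 0 counts in parental deficient, 1 and 0 in resistant deficient, 6 and 8 in parental proficient and 1 and 0 in resistant proficient libraries. Only the parental proficient cells had more than 1 count in any library. H19 was lower in resistant than in parental proficient cells by a ratio of 13.8, with an exact 95% interval of 2.09 to 582. It was at least 5.67-fold higher in parental proficient than in parental deficient cells, on the floor of 3 counts over the latter. IGF2 had 0 counts in all 8 libraries, as had INS-IGF2, IGF2-AS and INS. Since IGF2 shares 21.8% of its exon bases with INS-IGF2 and IGF2-AS in GENCODE v29, a read in these could have been left uncounted, and IGF2 is described only as listed at 0.

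MEST encodes an enzyme of the alpha/beta hydrolase fold and is read from the paternal copy. It was lower in both resistant lines. Its libraries stood at 274 and 265 CPM in parental deficient and 103 and 105 in resistant deficient cells, and at 195 and 185 in parental proficient and 139 and 150 in resistant proficient cells. No libraries of different groups overlapped. The log2 fold change of resistant over parental cells was -1.38 ± 0.07 in the deficient (GC-corrected -1.21) and -0.39 ± 0.07 in the proficient background (GC-corrected -0.39), a difference between backgrounds of 0.99 ± 0.09 (GC-corrected 0.82). The parental proficient cells were below the parental deficient by -0.51 ± 0.06 (GC-corrected -0.61). The resistant proficient cells were above the resistant deficient by 0.48 ± 0.07, and by 0.21 when GC-corrected. MESTIT1, an antisense RNA in the MEST gene, had 9 and 25 counts in parental deficient against 4 and 4 in resistant deficient libraries. COPG2, a coat protein gene on its other side, was at 31.7 ± 0.596 against 25.7 ± 1.34 CPM in the same cells, and CEP41, a centrosome gene, at 46.2 ± 0.893 against 46.7 ± 0.191.

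PEG10 and SGCE stand head to head on chromosome 7 and are both read from the paternal copy. PEG10 derives from a retrotransposon and is needed for the placenta, and SGCE encodes epsilon-sarcoglycan, a membrane protein of the dystrophin complex. PEG10 was the most abundant of the 10 genes per kilobase of exon in every group, from 110 CPM per kb in parental deficient to 224 in parental proficient cells. MEST ran from 21.6 in resistant deficient to 56.3 in parental deficient cells and was next in every group but the resistant deficient, where NDN stood at 23.4. PEG10 libraries stood at 722 and 744 CPM in parental deficient, 974 and 1016 in resistant deficient, 1541 and 1455 in parental proficient and 1298 and 1337 in resistant proficient cells, with no overlap between groups. Resistant over parental cells gave a log2 fold change of 0.44 ± 0.06 in the deficient (GC-corrected 0.64) and -0.19 ± 0.06 in the proficient background (GC-corrected -0.18), so the direction differed.

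SGCE libraries stood at 73.8 and 79.0 CPM in parental deficient, 67.5 and 72.7 in resistant deficient, 184 and 176 in parental proficient and 122 and 129 in resistant proficient cells. In the deficient background the log2 fold change was -0.12 ± 0.07 and turned to 0.29 when GC-corrected, so its direction depends on that step. In the proficient background SGCE was lower in resistant cells by -0.52 ± 0.07 (GC-corrected -0.34). Both genes were higher in parental proficient than in parental deficient cells, PEG10 by 1.03 ± 0.06 and SGCE by 1.24 ± 0.07 on the log2 scale (GC-corrected 0.85 and 0.84). Between the resistant lines PEG10 was higher in the proficient one by 0.41 ± 0.06 and SGCE by 0.84 ± 0.07, which became 0.04 and 0.22 when GC-corrected. Further along, COL1A2, a fibrillar collagen gene counted above among the markers of other cell types, was at 51.6 ± 6.33 CPM in parental deficient and 1.01 ± 0.405 in resistant deficient cells, while CASD1, a sialic acid acetyltransferase gene beside SGCE, was at 35.4 ± 1.84 and 40.9 ± 2.22. Before GC correction the 4 adjacent genes did not share a direction in the deficient background. CASD1 did not pass there (log2 fold change 0.21 ± 0.09, edgeR's quasi-likelihood test, adjusted p = 0.0624). With GC correction SGCE pointed up, as PEG10 did.

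NDN encodes necdin, a MAGE family protein that restrains cell division in neurons, and is read from the paternal copy in the Prader-Willi region. Next to PEG3 and ZIM2, it was the gene of the 10 that was higher in both resistant lines. Its libraries stood at 30.2 and 29.2 CPM in parental deficient against 49.2 and 41.1 in resistant deficient cells, and at 22.0 and 22.5 in parental proficient against 40.9 and 36.3 in resistant proficient cells. The log2 fold changes were 0.60 ± 0.11 and 0.80 ± 0.11 (GC-corrected 0.52 and 0.69), and their difference of 0.19 ± 0.15 (GC-corrected 0.17) was close to its error. Parental proficient cells were below parental deficient ones by -0.41 ± 0.11 (GC-corrected -0.22), and the resistant lines differed by -0.22 ± 0.11 (GC-corrected -0.05). MAGEL2, another MAGE gene, had 3 and 24 counts in parental deficient and 6 and 3 in resistant deficient libraries, and 21 and 28 against 12 and 6 in the proficient ones. MKRN3, a ubiquitin ligase gene, had 2 and 0, 0 and 0, 13 and 6, and 19 and 20 counts in parental deficient, resistant deficient, parental proficient and resistant proficient libraries. MKRN3 was near 0 in deficient cells. In proficient cells both resistant libraries lay above the parental ones for MKRN3 and below them for MAGEL2. Neither difference passed in edgeR's quasi-likelihood test, with adjusted p of 0.207 for MKRN3 and 0.112 for MAGEL2. Of all genes tested, 37.8% lay higher and 38.6% lower without overlap in that pair.

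CDKN1C encodes p57, an inhibitor of cyclin-dependent kinases that holds cells in G1, and is read from the maternal copy. Parental deficient libraries stood at 1.02 and 0.689 CPM, resistant deficient at 6.09 and 4.28, parental proficient at 14.1 and 14.3 and resistant proficient at 8.08 and 8.12. No groups overlapped, and the resistant lines lay between the parental ones. The log2 fold change of resistant over parental cells was 2.60 ± 0.25 in the deficient background (GC-corrected 1.62) and -0.81 ± 0.20 in the proficient (GC-corrected -0.84), a difference of -3.41 ± 0.32 (GC-corrected -2.47). The parental lines differed by 4.06 ± 0.25 on the log2 scale (GC-corrected 4.83) and the resistant lines by 0.65 ± 0.20, or by 2.36 when GC-corrected. CDKN1C had the highest transcript GC content of the 10 genes, at 63.8%, and SGCE the lowest, at 34.2%. PHLDA2, its maternally read neighbour, rose in the deficient background too and is given below.

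PLAGL1 encodes a zinc finger protein that arrests the cell cycle and is read from the paternal copy. Its libraries stood at 27.9 and 29.1 CPM in parental deficient and 28.3 and 31.3 in resistant deficient cells, which overlapped, and at 28.2 and 24.0 in parental proficient against 18.4 and 19.6 in resistant proficient cells, which did not. The log2 fold changes were 0.06 ± 0.11 (GC-corrected 0.32) and -0.46 ± 0.12 (GC-corrected -0.45). The parental lines overlapped, with a log2 difference of -0.13 ± 0.11 that was -0.46 when GC-corrected. Resistant proficient cells were below resistant deficient ones by -0.65 ± 0.11 (GC-corrected -1.22). HYMAI, the non-coding RNA that starts in the same control region, had 2 to 8 counts per library. LTV1, a ribosome assembly gene near PLAGL1, was at 54.7 ± 4.70 CPM in parental proficient and 36.1 ± 3.80 in resistant proficient cells, so it too was lower there. SF3B5, a splicing factor gene on the other side, went the opposite way in the same cells, from 6.32 ± 1.92 to 13.7 ± 0.674 CPM.

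**Figure D3:**
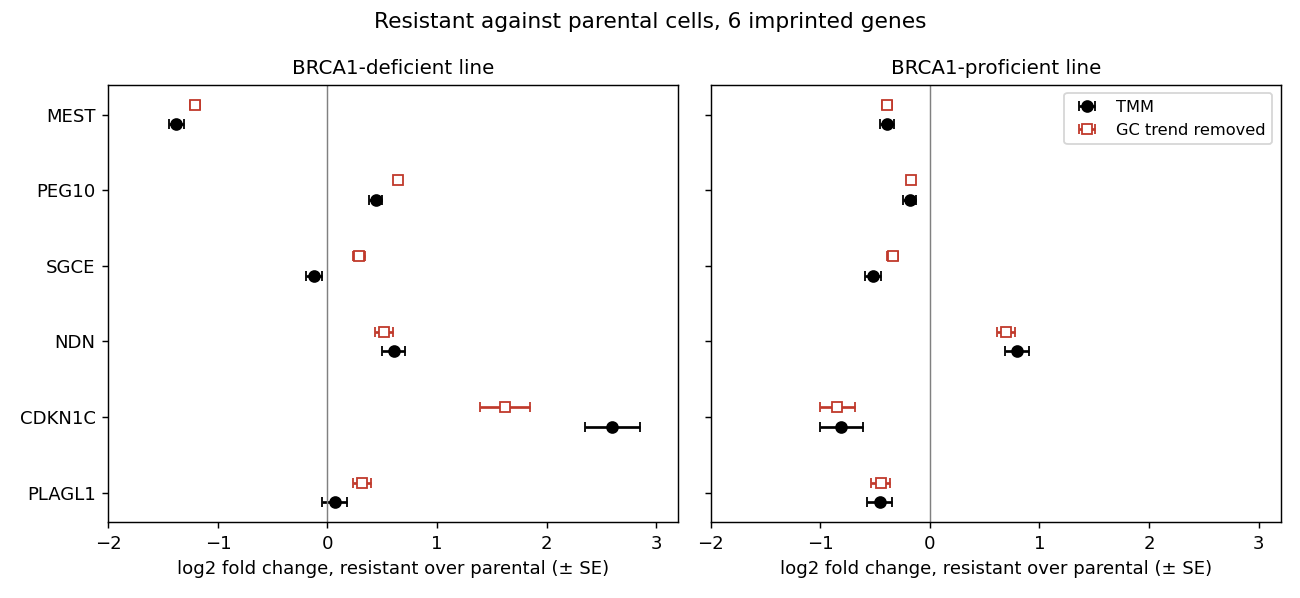
Log2 fold change of resistant over parental cells (x axis; bars, SE) for the 6 genes with more than 3 counts in every group, in the BRCA1-deficient (left) and proficient (right) background, from the TMM-scaled fit and after removal of each library's GC trend. MEST is lower and NDN higher on both sides, CDKN1C and PEG10 lie on opposite sides, and SGCE changes side with the GC step on the left.

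Only 8 of the 10 genes passed the filter and enter the following counts, which leave out H19 and IGF2. At an adjusted p under 0.05 (edgeR's quasi-likelihood test, Benjamini-Hochberg over the 16221 genes), 5 of the 8 were higher and 1 lower in resistant than in parental deficient cells. Of all genes tested, 28.9% were higher and 27.0% lower there. In the proficient background 3 were higher and 5 lower, against 25.9% and 27.8% of all genes. Between parental lines 3 were higher and 3 lower in proficient cells, against 32.3% and 30.1%. Between resistant lines 6 were higher and 1 lower, against 36.3% and 37.5%. By whether the libraries of the groups overlap, 5 were higher and 2 lower in resistant deficient than in parental deficient cells (40.8% and 37.8% of all genes), and 3 higher and 5 lower in the proficient pair (37.8% and 38.6%). The same count gave 3 and 3 between the parental lines (41.9% and 41.1%), and 6 and 2 between the resistant lines (42.8% and 43.7%). Because the genes were chosen with these levels known, nothing is read from these counts.

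Patterns across the 8 libraries were compared by Pearson r of log2 CPM, as a description, since libraries of a group share their cells. PEG3 and ZIM2 had an r of 0.936 and PEG3 and NDN one of 0.872, and PEG10 and CDKN1C had 0.955. PEG10 and SGCE, which share a start region, had 0.874. The genes most like PEG3 were ZNF716 (r 0.998), AKAP12 (0.997), H2BC21 (0.995), MYH10 (0.993) and REEP1 (0.991). ZNF716, a zinc finger gene, was at 4.22 CPM in parental deficient, 26.4 in resistant deficient, 2.46 in parental proficient and 64.3 in resistant proficient cells. The genes most like ZIM2 were LBH, TNRC6B, COL23A1, ZFHX3 and DCBLD1, with r between 0.993 and 0.996. The order near the top depended on the count added before the log: with 0.5 in place of 2, the 5 genes named for PEG3 ranked 13 to 29 of 12025. MEST was most like DNMT3A (r 0.994), a de novo DNA methyltransferase at 38.0, 23.5, 32.2 and 28.7 CPM in parental deficient, resistant deficient, parental proficient and resistant proficient cells. PEG10 was most like NSD1 (0.997), SGCE like FOXJ3 (0.998), NDN like PDK2 (0.989), CDKN1C like FBN2 (0.990) and PLAGL1 like DDX52 (0.980).

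The gene lists used from here on were also chosen with earlier results of these data known, so their shares beside all genes are descriptions. The rest of the imprinted genes were taken from a list of 62, of which 44 passed the filter on low counts and were tested. Of the other 18, USP29, ZIM3, INS, KCNQ1DN, DLK1, MEG3, RTL1 and MEG9 had 0 counts in all libraries. DLK1, MEG3, RTL1 and MEG9 belong to 1 imprinted cluster on chromosome 14. In resistant against parental deficient cells, 12 of the 44 rose and 11 fell by edgeR's quasi-likelihood test, that is 52.3% against 55.8% of all genes tested. Their median log2 fold change was 0.09, against 0.03 for all genes tested. With the GC trend removed, 21 rose and 10 fell, 70.5% against 59.6% of all genes in that fit. Without the second parental deficient library 6 fell in place of 11, and with DESeq2 7 fell. In resistant against parental proficient cells, 12 rose and 5 fell, or 38.6% against 53.7% of all genes, with a median of 0.07 against -0.002.

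In the deficient background the largest rise among genes that reached 1 CPM was that of OSBPL5, a lipid transfer gene, which went from 14 and 10 to 160 and 142 counts, a log2 fold change of 3.72 ± 0.54 (adjusted p = 0.000184, GC-corrected 2.76). DLX5, a homeobox gene, rose by 3.51 ± 0.40 (adjusted p = 3.18e-05). SLC22A18, a transporter gene of the CDKN1C cluster, rose by 2.03 ± 0.44 (adjusted p = 0.00241, GC-corrected 1.20). GNAS-AS1, antisense to GNAS, rose by 1.75 ± 0.31 (adjusted p = 0.000709). PHLDA2, a placental growth restrainer next to CDKN1C, rose by 1.74 ± 0.42 (adjusted p = 0.00482, GC-corrected 0.79), and its adjusted p became 0.063 without the first resistant deficient library, with a log2 fold change of 1.08, and 0.0565 with GC correction and a replicate block. OSBPL5, SLC22A18 and PHLDA2 lie in the same cluster as CDKN1C, as do KCNQ1 and KCNQ1OT1, which rose there too.

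Genes that fell in the deficient background included CPA4, a carboxypeptidase gene near MEST, with -1.71 ± 0.20 (adjusted p = 4.76e-05). NAP1L5, a histone chaperone relative, fell with -1.41 ± 0.31 (adjusted p = 0.00253). GLIS3, a zinc finger gene, fell with -1.14 ± 0.12 (adjusted p = 1.70e-05). PPP1R9A, a phosphatase-targeting gene beside PEG10, fell from 54.7 ± 3.40 to 29.2 ± 2.50 CPM, a log2 fold change of -0.90 ± 0.08 (adjusted p = 7.07e-06). FAM50B fell with -0.67 ± 0.26 (adjusted p = 0.0447, GC-corrected -1.19), but in 7 of 17 alternative analyses it did not pass. These were RLE scaling, DESeq2, a fit of the 2 groups alone, and the fits without the first or second parental deficient, second resistant deficient or second parental proficient library, with adjusted p of 0.0605, 0.198, 0.229 and 0.0578 for these libraries in turn.

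In the proficient background the largest rise was in WT1, a transcription factor of the Mullerian and kidney lineages that is a marker of serous ovarian carcinoma. It rose from 4 and 8 to 226 and 220 counts, a log2 fold change of 5.23 ± 0.46 (adjusted p = 3.04e-06). Its antisense partner WT1-AS rose from 2 and 2 to 44 and 21 counts (adjusted p = 0.00138). TP73, a p53 relative, rose by 3.83 ± 0.75 (adjusted p = 0.00120), and ATP10A, a lipid flippase gene, by 3.40 ± 0.18 (adjusted p = 6.44e-08). TFPI2, a protease inhibitor gene near PEG10 and SGCE, rose from 446 ± 1.47 to 1168 ± 52.1 CPM, by 1.39 ± 0.08 on the log2 scale (adjusted p = 1.73e-07).

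Among those that fell in the proficient background were SLC22A3, a cation transporter gene, with -2.18 ± 0.26 (adjusted p = 3.39e-05), and RB1, the retinoblastoma tumour suppressor, with -1.18 ± 0.09 (adjusted p = 8.31e-07). L3MBTL1, a chromatin-binding gene, fell with -1.14 ± 0.23 (adjusted p = 0.00156). GRB10, an inhibitor of insulin signalling, fell with -0.79 ± 0.06 (adjusted p = 1.84e-06). CPA4 fell with -0.82 ± 0.25 (adjusted p = 0.0175) and did not pass with DESeq2 (adjusted p = 0.0611) or without the first parental or second resistant proficient library (log2 fold changes -0.54 and -0.66, adjusted p = 0.161 and 0.104).

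Across both backgrounds, which share no library, NAP1L4, ATP10A, GNAS and GNAS-AS1 rose in both and CPA4 fell in both. Of all genes tested, 10.2% rose in both and 13.2% fell in both. GNAS rose by 0.68 ± 0.07 in deficient cells and by 0.17 when GC-corrected. GNAS-AS1 in proficient cells did not pass without the first parental or second resistant library (adjusted p up to 0.108), and NAP1L4 there not without the second parental one. L3MBTL1 rose in the deficient and fell in the proficient cells, and ZNF264, TFPI2 and NAP1L5 did the opposite. The fall of TFPI2 in deficient cells, -0.25 ± 0.08, turned to 0.03 when GC-corrected and did not pass without the second parental or first resistant deficient library (adjusted p up to 0.587 over these). The rise of L3MBTL1 there, 0.70 ± 0.22, did not pass without either parental or the first resistant deficient library (adjusted p up to 0.0927). ZNF264 went from 20.7 ± 1.62 to 13.2 ± 0.62 CPM in deficient and from 36.6 ± 0.315 to 47.2 ± 0.407 CPM in proficient cells. The other 35 genes tested passed in 1 background or in neither.

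**Figure D4:**
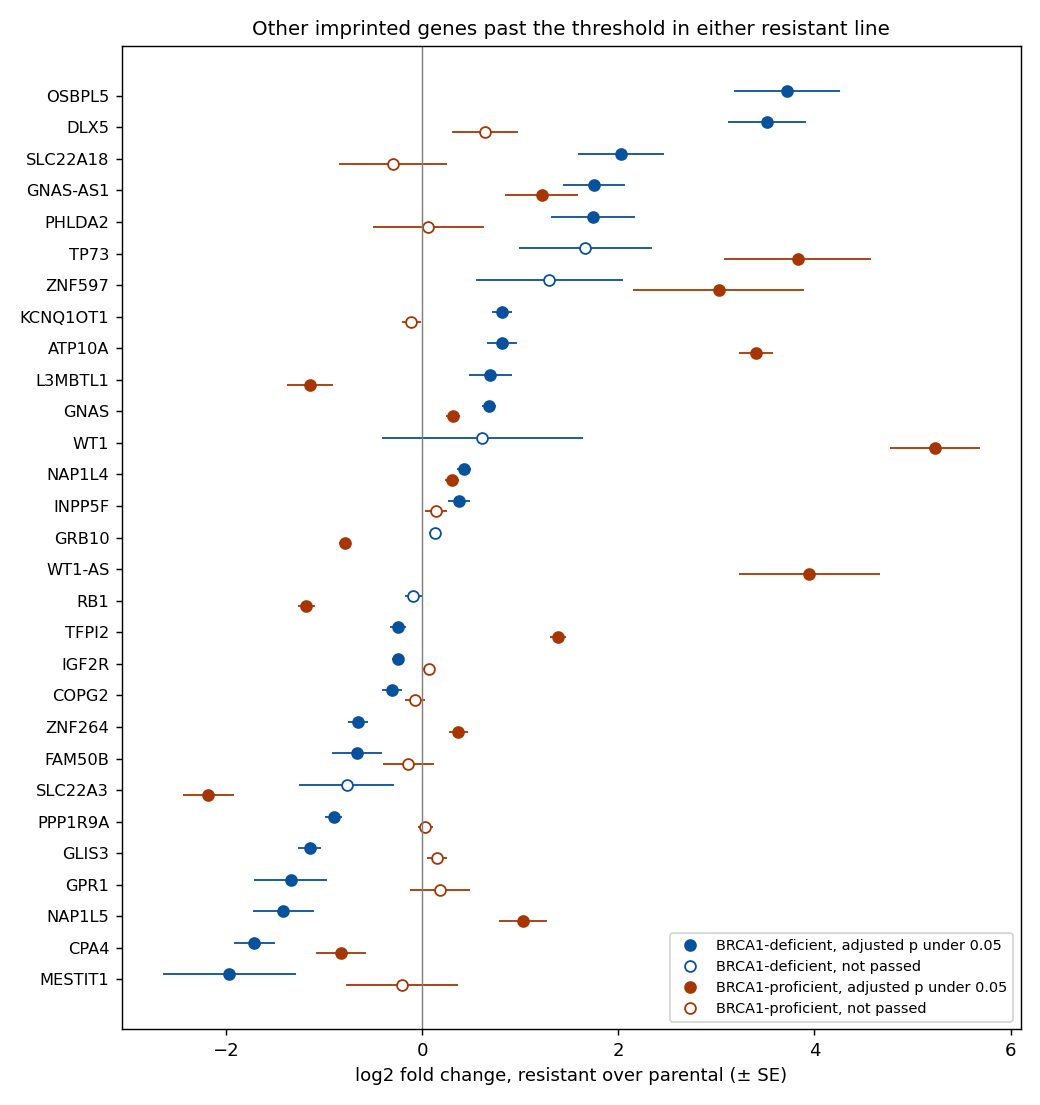
Log2 fold change of resistant over parental cells (x axis; bars, SE) for 29 other imprinted genes that passed an adjusted p of 0.05 in either background, ordered by the deficient one. Filled points passed, open points did not; 2 genes and 2 single values with a group of at most 3 counts are left out. WT1 and ATP10A stand far right in proficient cells, OSBPL5 and DLX5 in deficient cells.

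Between the parental lines, which differ in BRCA1 and also in passage, 16 of the 44 were higher and 5 lower in proficient cells, against 62.4% of all genes tested that passed in either direction. SLC22A3 was higher by 4.84 ± 0.32 (adjusted p = 3.45e-07), DLX5 by 2.28 ± 0.43 (adjusted p = 0.000801), GLIS3 by 2.02 ± 0.11 (adjusted p = 7.18e-08) and KCNQ1OT1, the non-coding RNA that silences the CDKN1C cluster on the paternal copy, by 1.58 ± 0.10 (adjusted p = 2.90e-07). SLC22A2 had 34 and 42 counts in parental proficient against 0 and 1 in parental deficient libraries. CPA4 was lower with -2.23 ± 0.22 (adjusted p = 5.50e-06), ATP10A with -1.82 ± 0.18 (adjusted p = 6.66e-06) and BLCAP with -0.51 ± 0.08 (adjusted p = 0.000132). GNAS was lower with -0.43 ± 0.07 (adjusted p = 0.000319) and turned to 0.15 with the GC trend removed. NAP1L4, at -0.18 ± 0.07 (adjusted p = 0.0474), did not pass in 7 of 17 alternative analyses, namely DESeq2, the replicate block, GC correction with and without it, and the fits without the first parental deficient or the first or second parental proficient library (adjusted p = 0.266, 0.0564 and 0.243).

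Between the resistant lines 20 of the 44 were higher and 13 lower in proficient cells, or 75.0% against 73.8% of all genes. WT1 was higher by 6.40 ± 0.51 (adjusted p = 6.08e-07), NAP1L5 by 3.48 ± 0.29 (adjusted p = 9.44e-07) and SLC22A3 by 3.43 ± 0.38 (adjusted p = 8.72e-06). WT1-AS and SLC22A2 were higher as well, each with 0 counts in both resistant deficient libraries. SLC22A18 was lower with -2.57 ± 0.47 (adjusted p = 0.000470, GC-corrected -1.08), PHLDA2 with -2.55 ± 0.47 (adjusted p = 0.000454, GC-corrected -0.93), L3MBTL1 with -1.36 ± 0.23 (adjusted p = 0.000241) and CPA4 with -1.35 ± 0.24 (adjusted p = 0.000390). OSBPL5 had 3 and 0 counts in resistant proficient against 160 and 142 in resistant deficient libraries.

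Proteins that keep or remove imprints and DNA methylation were taken from a list of 24, of which 21 were tested. The whole list is called the imprint-keeping factors below for short, although it includes factors that remove methylation. In deficient cells 6 rose and 10 fell on resistance, 76.2% against 55.8% of all genes, and in proficient cells 2 rose and 8 fell, 47.6% against 53.7%. With the GC trend removed, 8 rose and 11 fell in deficient cells, 90.5% against 59.6% of all genes in that fit. In proficient cells 3 rose and 11 fell in that fit, 66.7% against 63.3%. TRIM28, among the 6 that rose in deficient cells at 0.40 ± 0.13, turned to -0.57 when GC-corrected. SUZ12, among the 10 that fell there, went from -0.34 to -0.03. Without the second parental or the first resistant deficient library, 3 rose in place of 6 in deficient cells. In proficient cells 4 rose in place of 2 without the low-count filter, and 4 without the first resistant deficient library, which enters the shared estimate of the spread. DNMT3B, YY1, KDM1A, EZH2 and EED fell in both backgrounds, as did 13.2% of all genes tested. EZH2 in deficient cells fell with -0.43 (GC-corrected -0.20) and EED with -0.80 (GC-corrected -0.36). DNMT3B, a de novo DNA methyltransferase, went from 42.0 ± 3.95 to 12.5 ± 0.862 CPM in deficient and from 112 ± 2.21 to 31.4 ± 0.356 CPM in proficient cells, log2 fold changes of -1.75 ± 0.10 (adjusted p = 2.12e-07) and -1.84 ± 0.09 (adjusted p = 4.78e-08). EZH2, the methyltransferase of the Polycomb repressive complex, fell in proficient cells with -1.20 ± 0.07 (adjusted p = 2.33e-07). TDG, a glycosylase that removes oxidised methylcytosine, fell in deficient cells with -0.91 ± 0.10 (adjusted p = 3.05e-05).

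ZNF445, the other zinc finger protein that keeps imprints, rose in both backgrounds, as did HELLS, a helicase needed for DNA methylation. ZNF445 went from 40.9 ± 0.249 to 51.9 ± 3.38 CPM in deficient cells, and rose by 0.49 ± 0.08 (adjusted p = 0.000257) in proficient cells. HELLS rose by 0.59 ± 0.10 (adjusted p = 0.000528) in proficient cells. EHMT2, a histone H3 methyltransferase, rose in deficient cells by 1.01 ± 0.12 (adjusted p = 4.53e-05), and by 0.31 when GC-corrected. UHRF1, which guides the maintenance methyltransferase, rose there by 0.73 ± 0.21 (adjusted p = 0.0133), but not without the second parental library (log2 fold change 0.66, adjusted p = 0.0913) or the first resistant one (0.31, adjusted p = 0.171). DNMT1, the maintenance methyltransferase itself, passed in neither background, at 0.05 and -0.10. With the GC trend removed it was lower and passed in both, at -0.21 (adjusted p = 8.70e-05) and -0.22 (adjusted p = 6.08e-05).

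Genes tied to the roles of the 10 were described in the same way. Of 16 genes of the insulin-like growth factor axis, through which IGF2 acts, 15 were tested: 4 rose and 6 fell in deficient cells (66.7% against 55.8% of all genes tested) and 4 rose and 8 fell in proficient cells (80% against 53.7%). IGFBP3, a binding protein that holds the growth factor in the medium, rose in deficient cells from 241 ± 3.39 to 699 ± 17.5 CPM (log2 fold change 1.54 ± 0.06, adjusted p = 1.41e-08) and fell in proficient cells from 210 ± 1.19 to 79.0 ± 1.72 CPM (-1.41 ± 0.06, adjusted p = 1.52e-08). INSR, the insulin receptor, rose in deficient cells by 2.10 ± 0.13 (adjusted p = 4.58e-07), where IGFBP6 fell with -1.10 ± 0.23 (adjusted p = 0.00187, GC-corrected -2.08) and IGF2BP3, an RNA-binding protein, with -0.48 ± 0.07 (adjusted p = 0.000127, GC-corrected -0.21). In proficient cells IGFBP7 rose by 2.82 ± 0.07 (adjusted p = 3.38e-10) and IGFBP5 fell with -3.72 ± 0.08 (adjusted p = 1.06e-10). IGF1 rose by 1.39 ± 0.42 (adjusted p = 0.0154), but not without the second parental (log2 fold change 0.82, adjusted p = 0.122) or first resistant (1.27, adjusted p = 0.0816) proficient library.

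Beside CDKN1C, 7 genes with CDKN symbols were listed, by symbol and not by mechanism, and all 7 were tested. In deficient cells 1 rose and 3 fell, 57.1% against 55.8% of all genes tested. CDKN1B fell with -0.77 ± 0.10 (adjusted p = 8.88e-05). CDKN2B fell with -0.29 ± 0.09 (adjusted p = 0.0154), which did not pass in 5 of 17 alternative analyses. These were GC correction with and without a replicate block (log2 fold change -0.09 in both), a fit of the 2 groups alone, and the fits without the second parental or first resistant deficient library (adjusted p = 0.0789 and 0.0536). CDKN2D rose by 0.63 ± 0.16 (adjusted p = 0.00628), and this turned to -0.09 with the GC trend removed and did not pass without the first parental deficient library (0.56, adjusted p = 0.0542). In proficient cells 3 rose and 2 fell, 71.4% against 53.7%. CDKN1A, the p21 gene, rose by 1.65 ± 0.16 (adjusted p = 6.81e-06) and CDKN2B by 1.31 ± 0.09 (adjusted p = 3.08e-07), while CDKN3 fell with -0.78 ± 0.08 (adjusted p = 6.33e-06) and CDKN1B with -0.46 ± 0.10 (adjusted p = 0.00190).

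Of 8 sarcoglycan and dystroglycan complex genes other than SGCE, 4 were tested. Of these, 3 fell in deficient cells (75.0% against 55.8% of all genes tested), and 2 rose and 2 fell in proficient cells (100% against 53.7%). SSPN, the sarcospan gene, fell with -1.61 ± 0.21 in deficient cells (adjusted p = 8.65e-05) and with -2.36 ± 0.21 in proficient cells (adjusted p = 3.60e-06). DMD, the dystrophin gene, fell with -0.69 ± 0.15 (adjusted p = 0.00277, GC-corrected -0.45) and -1.21 ± 0.15 (adjusted p = 4.97e-05). SGCB and DAG1, the genes of beta-sarcoglycan and dystroglycan, rose in proficient cells by 1.29 ± 0.15 (adjusted p = 2.14e-05) and 1.17 ± 0.08 (adjusted p = 3.72e-07), and SGCB fell in deficient cells with -0.63 (GC-corrected -0.35).

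Of 17 genes of the MAGE and retrotransposon-derived families to which NDN and PEG10 belong, 13 were tested, and 6 rose and 2 fell in deficient (61.5% against 55.8% of all genes tested) and 4 rose and 2 fell in proficient cells (46.2% against 53.7%). RTL6 went from 6.21 ± 1.12 to 40.5 ± 1.54 CPM in deficient and from 1.93 ± 0.236 to 16.2 ± 0.188 CPM in proficient cells, log2 fold changes of 2.71 ± 0.15 (adjusted p = 2.12e-07) and 3.08 ± 0.17 (adjusted p = 1.11e-07). RTL10 rose by 1.34 ± 0.10 (adjusted p = 1.16e-06) and 1.09 ± 0.10 (adjusted p = 3.50e-06). MAGED1, a MAGE gene close to NDN in sequence, fell in deficient cells with -0.65 ± 0.07 (adjusted p = 3.06e-05) and rose in proficient cells. MAGEE1 fell in deficient cells with -0.72 ± 0.18 (adjusted p = 0.00545). RTL8A fell in proficient cells with -0.61 ± 0.12 (adjusted p = 0.00154), as did MAGEF1 with -0.32 ± 0.08 (adjusted p = 0.00780), the latter not without the first parental (log2 fold change -0.27, adjusted p = 0.0861) or first resistant (-0.21, adjusted p = 0.115) library.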

How the data were processed

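RNA-seq of total RNA from 4 cell lines, 2 libraries each, was analysed. The deposited values are raw whole-number read counts per gene symbol, 24094821 to 34394107 per library. The authors' tools, per the submitters' processing notes, included Subread 2.0.1 with featureCounts, Trimmomatic 0.39 and DESeq2 1.24.0, and the build was GRCh37. For the roles of these tools, the gene models, strandedness and multiply mapped reads the entry is: not given in the sources used here. Hence overlapping and antisense genes are uncertain. Groups came from the sample titles.

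edgeR 4.0.16 (R 4.3.3) tested the counts by quasi-likelihood in 1 fit of all 8 libraries without covariates, with TMM factors, the filterByExpr filter (16221 of 32803 genes) and Benjamini-Hochberg adjustment over all genes tested. "Rose" and "fell" mean an adjusted p under 0.05. SE is the log2 fold change over the root of its F value. With a group of at most 3 counts, a bound from 3 counts over the group or a ratio with an exact 95% interval replaces the fitted value. Intervals and bounds cover counting error only. Replicates differed beyond sampling noise. Chi-square per degree of freedom was 22.5 in resistant deficient, 8.65 in resistant proficient, 5.54 in parental deficient and 4.21 in parental proficient libraries. The code was tested on simulated data. GC content came from GENCODE v29 transcripts (96.6% of genes tested) and its trend was removed per library by a spline with 5 degrees of freedom. Neighbours followed RefSeq gene order.

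The genes described and all lists were chosen with earlier results of these data known. Of the other imprinted genes, up to 5 per direction and comparison with the largest log2 fold change, past the adjusted p and reaching 1 CPM in whichever group was higher, are named; of the other lists up to 2 per direction and resistance comparison. Up to 5 neighbours a side were taken for PEG3 and ZIM2 and up to 2 for the rest. Likeness was ranked among genes that reached 5 CPM in some group, with 2 as the prior count before the log. ZFP57, DNMT1, TRIM28, SUZ12, TET3, ZNF264, ZNF471, ZNF304, ZNF460, BRCA1 and the marker genes were named outside this rule after their values were seen. Alternatives were other scaling factors, other filters, DESeq2 1.42.0, only the groups compared, a replicate block, GC correction and leaving out each library.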

Additional observations from a re-analysis of the deposited data

Results flagged for a closer look

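The resistance effect, the log2 fold change of resistant over parental cells, differed between the backgrounds for several genes. The difference is given as the effect in BRCA1-proficient minus that in BRCA1-deficient cells, ± SE. For the 10 genes described first it was not tested. PEG10 was higher in both resistant deficient libraries and lower in both resistant proficient libraries than in their parents, with a difference of -0.63 ± 0.08 (-0.82 with the GC trend removed), and CDKN1C did the same with -3.41 ± 0.32 (-2.47). With 46.7% of all genes tested passing for this difference, a pass is common.

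Of the other imprinted genes named in a resistance comparison, the effect was higher in proficient cells for ATP10A (2.59 ± 0.23), CPA4 (0.89 ± 0.33), GLIS3 (1.30 ± 0.16), NAP1L5 (2.44 ± 0.39), PPP1R9A (0.94 ± 0.11), TFPI2 (1.63 ± 0.12) and WT1 (4.61 ± 1.40), and lower for DLX5 (-2.87 ± 0.53), GRB10 (-0.92 ± 0.09), L3MBTL1 (-1.84 ± 0.32), RB1 (-1.09 ± 0.12) and SLC22A18 (-2.32 ± 0.70), by the interaction term of edgeR's quasi-likelihood fit (adjusted p from 1.34e-06 to 0.0454). With the GC trend removed the difference for SLC22A18 was -1.54. The effects pointed in opposite directions and passed in both backgrounds for NAP1L5 (-1.41 and 1.03 in deficient and proficient cells), TFPI2 (-0.25 and 1.39, the former 0.03 with the GC trend removed) and L3MBTL1 (0.70 and -1.14). WT1 had at most 4 counts in any deficient library, and without the first parental deficient library its difference was 0.67 (adjusted p = 0.770). The difference for CPA4 did not pass with DESeq2, with GC correction with or without a replicate block, or without either parental deficient, the second resistant deficient, the second parental proficient or the first resistant proficient library (adjusted p up to 0.164), and that for SLC22A18 did not pass without the second parental library of either background or the first resistant library of either (adjusted p from 0.0517 to 0.143).

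Among the 21 factors that keep or remove imprints and DNA methylation, 3 passed with a higher and 6 with a lower effect in proficient cells. That is 42.9% against 46.7% of all genes tested. TET3 had the largest difference, -1.22 ± 0.13 (-1.25 with the GC trend removed). It rose by 0.36 ± 0.09 in deficient and fell with -0.86 ± 0.09 in proficient cells. Of those named by rule, TDG passed with 0.74 ± 0.14 (0.49), EHMT2 with -0.92 ± 0.17 (-0.30) and EZH2 with -0.77 ± 0.10 (-0.999). Without the GC step, adjusted p in edgeR's quasi-likelihood fit was 3.06e-05 for TET3 and from 0.000143 to 0.00164 for these 3.

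In the families tied to the 10 genes, the effect was higher in proficient cells for CDKN1A (1.21 ± 0.25), CDKN2B (1.61 ± 0.12), DAG1 (1.07 ± 0.11), IGF1 (2.57 ± 0.66), IGFBP7 (2.09 ± 0.09), MAGED1 (1.22 ± 0.10), MAGEE1 (1.69 ± 0.25) and SGCB (1.93 ± 0.21), and lower for CDKN3 (-0.51 ± 0.11), IGFBP3 (-2.95 ± 0.08), IGFBP5 (-4.32 ± 0.10), INSR (-1.60 ± 0.18), MAGEF1 (-0.70 ± 0.12) and RTL8A (-1.16 ± 0.17) (adjusted p from 4.05e-10 to 0.00829 in edgeR's quasi-likelihood fit). With the GC trend removed the difference for RTL8A was -0.65.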

How the results depend on the processing

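For other imprinted genes the number passing was 23, 17, 21, 33 and 18 for resistance in deficient cells, resistance in proficient cells, the parental lines, the resistant lines and the difference of effects. Leaving out 1 library gave 17 to 24, 14 to 17, 18 to 22, 32 to 34 and 14 to 19, and the other settings 19 to 31, 14 to 18, 19 to 24, 29 to 35 and 16 to 26. For the imprint-keeping factors the first 4 counts were 16, 10, 18 and 15, with 12 to 16, 10 to 12, 14 to 17 and 15 without 1 library and 15 to 19, 10 to 14, 16 to 18 and 14 to 20 otherwise. All 152 alternatives of these totals stayed within 1.5 times the main total, but the number in 1 direction did not always. Beside the splits given with the results, the factors that were lower in resistant proficient than in resistant deficient cells went from 7 to 11 with GC correction. Each arm without 1 library has a lone sample that is assumed to vary like the other groups. Beside TFPI2 and TRIM28 in deficient cells, passing values given above reversed for 2 named genes outside the 10. This was with GC correction alone and with GC correction and replicate block. CDKN2D in resistant deficient cells became -0.0889 and -0.0914, and GNAS between the parental lines became 0.15 and 0.15. Comparisons not given above reversed with GC correction too. Among them were EHMT2 between the parental lines, from -0.48 to 0.19, and TRIM28 between the resistant lines, from -1.54 to 0.15. For the difference of effects GC correction also moved the split from 10 higher and 8 lower to 11 and 15, and 5 were lower without the second parental proficient library. A further 44 values of named genes other than TRIM28, SUZ12, TET3 and EHMT2, over 12 results, kept their direction but not their pass. Of 554 alternative values of the 10 genes, 88 moved by more than the spread between replicates, 50 of them with GC correction.

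Replicate numbers did not pair the samples: deviations of same-numbered libraries correlated at 0.121 in the deficient, -0.0952 in the proficient, -0.0523 in the parental and 0.212 in the resistant pair. With a replicate block 26 and 17 other imprinted genes passed in the resistance comparisons, and MEST gave -1.38 and -0.39. Limits are 2 libraries a group, a resistant line and a passage difference that coincide, and few or no reads of H19, IGF2 and ZIM2. A further limit is the BRCA1 level, which was higher with resistance in proficient cells alone.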
